A study of Mus musculus with 6 samples.

Results

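The cell cycle and DNA replication genes described here are 42 genes listed by function: the replicative helicase and its loaders, suppliers of nucleotides, the cyclins and their kinases, and the machinery of mitosis. They were found by gene symbol, and 41 of the 42 had a row of the array annotated with that symbol alone, out of 19938 genes in all. Ccnb1 was not analysed here. RNA came from mucosa of the jejunum, the middle stretch of the small bowel. The C57/BL mice were 8 to 10 weeks old and ate regular chow. There were 3 arrays of ISR2 mice, a transgenic line in which the sterol factor SREBP2 is overactive in the intestine, and 3 arrays of their wild type littermates. The sources used here do not give the promoter that drives the transgene. Nor do the labels say whether each array holds 1 mouse; each p-value then speaks only for the scatter of these samples, which may be technical.

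In the small intestine, cells divide in the crypts, where stem cells and their transit-amplifying daughters renew the epithelium, while the enterocytes of the villus have left the cell cycle. Genes of DNA synthesis are switched on by E2F factors as cells pass from G1 into S phase. Genes of mitosis follow later, through the factors Mybl2 and Foxm1 acting at promoters with a cell cycle homology region (CHR), often beside CCAAT boxes. In RNA of whole mucosa, fewer dividing cells and less RNA per dividing cell cannot be told apart.

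Of the 41 genes, 1 rose in ISR2 mucosa and none fell. The gene that rose was Rrm2, which encodes the cell-cycle-regulated subunit of ribonucleotide reductase, the enzyme that makes deoxyribonucleotides; it was 1.83-fold higher (log2 change 0.87 ± 0.18, SE, 3 arrays per group; limma adjusted p = 0.0393). Over all genes 1.79% rose and 1.23% fell by the same test (limma, Benjamini-Hochberg adjusted p under 0.05 over 19938 genes), or 3.02% in either direction, and 1 rise among 41 is near that background. At an unadjusted p under 0.05, 2 members were higher and 0 lower, below the 13.1% of all genes that had such a p in either direction (943 higher and 1675 lower of 19938). The median log2 change of the 41 genes was 0.04, beside -0.06 for all genes. Of the 41, 22 were higher and 19 lower in ISR2, beside 7465 higher and 12473 lower of all 19938 genes. The values instead differed between arrays of the same group, and in nearly all members in the same way: wild type array 3 and ISR2 array 3 were high, and wild type array 1 and ISR2 array 2 were low. The median spread within a group was an SD of 0.50 for the members and 0.18 for all genes (log2 scale).

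Promoter sequences are shown for 4 members, to be read for the E2F and CHR motifs by which replication and mitosis genes are usually told apart. They are RefSeq windows of GRCm38.p6, from 250 bases before to 50 bases after the gene's start, read in the direction of the gene; 32 of the 41 members matched an entry by symbol. Capitals mark every match, on either strand, to E2F (TTCCCGC or TTCGCGC or TTGCCGC or TTGGCGC), to CHR (TTTGAA or TTTAAA) and to the CCAAT box, spelled by its name. The last of the E2F spellings can share letters with a reversed CCAAT box, and in 1 member an E2F match did so. Rrm2 was the member with the smallest p that held an E2F match and also the one with the smallest p that held a CHR match. Pcna, Mcm6 and Ccnb2 were chosen after their values were seen, as the member next in p, a helicase gene and a mitotic cyclin gene.
Rrm2 (chr12:24708004-24708303, plus strand): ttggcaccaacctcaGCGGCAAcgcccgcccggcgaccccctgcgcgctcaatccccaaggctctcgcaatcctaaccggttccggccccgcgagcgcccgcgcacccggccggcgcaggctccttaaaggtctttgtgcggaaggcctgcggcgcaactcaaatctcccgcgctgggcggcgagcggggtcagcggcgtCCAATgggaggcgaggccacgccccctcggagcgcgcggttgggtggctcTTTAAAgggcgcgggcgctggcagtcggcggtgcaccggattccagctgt
Pcna (chr2:132253131-132253430, minus strand): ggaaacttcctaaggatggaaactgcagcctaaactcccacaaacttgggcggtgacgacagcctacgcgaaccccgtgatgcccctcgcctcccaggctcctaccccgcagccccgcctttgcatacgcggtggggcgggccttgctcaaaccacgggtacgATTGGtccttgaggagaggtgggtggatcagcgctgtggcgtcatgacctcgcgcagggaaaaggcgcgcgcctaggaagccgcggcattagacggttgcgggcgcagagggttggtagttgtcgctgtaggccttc
Mcm6 (chr1:128359656-128359955, minus strand): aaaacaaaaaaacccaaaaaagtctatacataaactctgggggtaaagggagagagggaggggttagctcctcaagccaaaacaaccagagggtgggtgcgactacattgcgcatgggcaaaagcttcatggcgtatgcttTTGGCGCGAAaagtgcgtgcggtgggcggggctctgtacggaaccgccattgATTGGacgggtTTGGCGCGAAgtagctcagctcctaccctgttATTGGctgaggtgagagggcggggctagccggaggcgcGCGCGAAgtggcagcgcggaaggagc
Ccnb2 (chr9:70421505-70421804, minus strand): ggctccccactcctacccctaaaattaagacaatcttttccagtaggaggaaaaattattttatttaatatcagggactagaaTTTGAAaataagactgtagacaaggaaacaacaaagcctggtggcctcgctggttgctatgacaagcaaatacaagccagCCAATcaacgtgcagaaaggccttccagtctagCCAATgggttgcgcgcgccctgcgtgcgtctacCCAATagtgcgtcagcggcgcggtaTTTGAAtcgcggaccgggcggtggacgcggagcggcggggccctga

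The Rrm2 window held 1 E2F match far upstream (bases -235 to -229 from the start), a CCAAT box at -50 to -46 and the letters TTTAAA at bases 1 to 6. The Mcm6 window held E2F matches in the capital stretches from -109 to -100, from -46 to -37 and from 25 to 31. The Mcm6 window also held reversed CCAAT boxes at -57 and -14. The Ccnb2 window had TTTGAA at -167 to -162, CCAAT boxes at -87, -54 and -21, then TTTGAA again at bases 5 to 10, and no E2F match. In the Pcna window the only match was a reversed CCAAT box at -87 to -83. An E2F match was present in 11 of the 32 members (34.4%) and in 10.9% of all 27025 genes with a window. CHR letters were present in 18 members (56.2%; 30.6% of all genes) and a CCAAT box in 24 (75.0%; 41.1% of all genes). E2F letters were in 8 of 12 members of the helicase, licensing, fork and nucleotide roles and in 3 of the other 20, while CHR letters were in 3 of those 12 and in 15 of the other 20. These are counts of letters in a window, with no measurement of binding.

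The labels and the tissue were checked first. Srebf2, the gene of SREBP2, was 9.04 to 9.50 in the wild type arrays and 10.85 to 11.16 in the ISR2 arrays (log2, RMA; adjusted p = 0.000298 in limma). Villin (Vil1), the brush border protein of enterocytes, was 12.04 to 12.27 in wild type and 11.69 to 11.93 in ISR2, all below wild type (adjusted p = 0.29 in limma). The regional markers were mixed. Of 3 ileal markers, the bile acid binding protein Fabp6 was 4.90 to 5.17 in wild type and 4.61 to 4.87 in ISR2, all below wild type. Fabp6 did not pass (adjusted p = 0.476 in limma). The bile acid transporter Slc10a2 rose 2.02-fold, from 4.51 to 4.81 in wild type to 5.48 to 5.78 in ISR2 (adjusted p = 0.00461 in limma). Fgf15 differed by -0.15. The values of all 3 lay below the array medians. Of 5 markers of the proximal small intestine, Gata4 was 9.71 to 10.07 in wild type and 9.28 to 9.91 in ISR2, and adenosine deaminase (Ada) fell 11.1-fold, from 11.54 to 12.46 in wild type to 6.92 to 10.32 in ISR2 (adjusted p = 0.0293 in limma). The other proximal markers, Fabp1, Cybrd1 and Slc40a1, differed by 0.14, -0.21 and -0.53 and did not pass. The part of position along the intestine in the members' values was not tested. Array medians lay between 6.04 and 6.19, and the precision is limited by the number of arrays. The values are on a log2 scale that equalises the arrays, so each difference is relative to the bulk of the genes, and levels of different genes are not compared.

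The helicase subunits Mcm2 to Mcm7 form the ring that unwinds DNA ahead of the replication fork. None of the 6 passed the test; at an unadjusted p under 0.05 there were also 0. Mcm6 was 7.17, 7.52 and 8.27 in wild type arrays 1, 2 and 3 and 7.94, 7.67 and 8.56 in ISR2 arrays 1, 2 and 3. The groups overlapped, and the difference of 0.40 ± 0.30 (SE; adjusted p = 0.658 in limma) was below the within-group SD of 0.51. Mcm4 was 6.31, 6.55 and 7.42 in wild type and 7.18, 6.57 and 7.44 in ISR2. For Mcm4 the difference was 0.31 ± 0.31 (SE), with wild type array 3 level with the highest ISR2 array. Mcm7 was 7.62, 8.02 and 8.65 in wild type and 7.15 in ISR2 array 2 between 8.21 and 8.62 in the other ISR2 arrays. The wild type range of Mcm7 therefore lay inside the ISR2 range but for its top value. Mcm2, Mcm3 and Mcm5 differed by 0.17, 0.05 and 0.00, each with an SE of 0.26 to 0.31. As a group the subunits had means of 6.90, 7.25 and 7.90 in the wild type arrays and 7.61, 6.92 and 7.93 in the ISR2 arrays.

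Cdc6 and Cdt1 load the helicase at origins, and Mcm10 and the GINS subunits Gins1 and Gins2 help to start it. Of these 5 genes none passed, and 4 were on the lower side, beside 12473 of all 19938 genes. Mcm10 was 7.01, 7.28 and 7.42 in wild type and 7.05, 6.72 and 7.21 in ISR2, a difference of -0.24 ± 0.17 (SE). Gins2 was 7.0, 7.25 and 7.39 in wild type and 7.11, 6.98 and 7.21 in ISR2. Both genes overlapped between groups, in each case with ISR2 array 2 lowest of the 6. Cdt1 was 7.20, 7.30 and 7.69 against 7.46, 7.03 and 7.60, a difference of -0.03 ± 0.19 (SE). Cdc6 and Gins1 differed by 0.11 and -0.05. This group varied less between arrays than the helicase, with a median within-group SD of 0.26 against 0.52.

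The 4 genes of the fork clamp and of nucleotide supply were all on the higher side, with log2 changes of 0.08 to 0.87. Over all genes 7465 of 19938 were on that side. The only rise that passed among the members was in this group. Rrm2 was 6.99, 7.44 and 7.72 in wild type arrays 1, 2 and 3 and 8.22, 8.21 and 8.34 in the ISR2 arrays. Every ISR2 array lay above every wild type array, and the ISR2 arrays lay close together (SD 0.08, beside 0.37 in wild type). The 95% interval of the change was 0.46 to 1.29. The call was lost when any single array other than wild type array 3 was left out (adjusted p = 0.0662 to 0.144, log2 change 0.67 to 0.90), and when all 35556 rows of the array were tested (adjusted p = 0.11). Pcna, the sliding clamp that holds the polymerase on DNA, was 9.85, 10.39 and 10.31 in wild type and 10.83, 10.88 and 10.59 in ISR2. The groups did not overlap, but the change of 0.58 ± 0.17 (SE) did not pass (adjusted p = 0.141 in limma; 0.0345 with array weights). A separate row annotated to Pcna, not used in the test, had 8.81 to 9.28 in wild type and 9.58 to 9.63 in ISR2. Its change of 0.51 ± 0.15 (SE) did not pass either (adjusted p = 0.242 in limma over all rows). Groups without overlap and with ISR2 above were thus seen in 2 of 41 members, beside 5.87% of all genes; ISR2 lay wholly below in 0 members and in 13.9% of all genes (19.8% for either side).

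Rrm1, which encodes the large subunit that pairs with Rrm2, did not pass the test. It was 6.94, 7.50 and 8.12 in wild type and 7.70, 6.99 and 8.35 in ISR2, and the groups overlapped (0.16 ± 0.36, SE; adjusted p = 0.911 in limma). Within each array Rrm2 minus Rrm1 was 0.04, -0.05 and -0.40 in wild type and 0.51, 1.22 and 0.00 in ISR2. The group means of this difference were 0.71 apart (exact two-sided permutation test over the 6 arrays, p = 0.2, 0.4 after adjustment over the 2 pairs of genes compared). The smallest p that 3 arrays against 3 allow is 0.1, so this test could not reach 0.05. Rrm2b, the subunit induced by p53, differed by -0.10 ± 0.14 (SE). Tyms, thymidylate synthase, was 7.42, 7.94 and 8.17 against 7.79, 7.64 and 8.34, with overlap. Set against the mean of the other 40 members in the same array, Rrm2 stood at 0.05, 0.22 and -0.05 in wild type and at 0.79, 1.38 and 0.57 in ISR2. The largest of these was in ISR2 array 2, where the other members were low and Rrm2 was not.

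**Figure D1:**
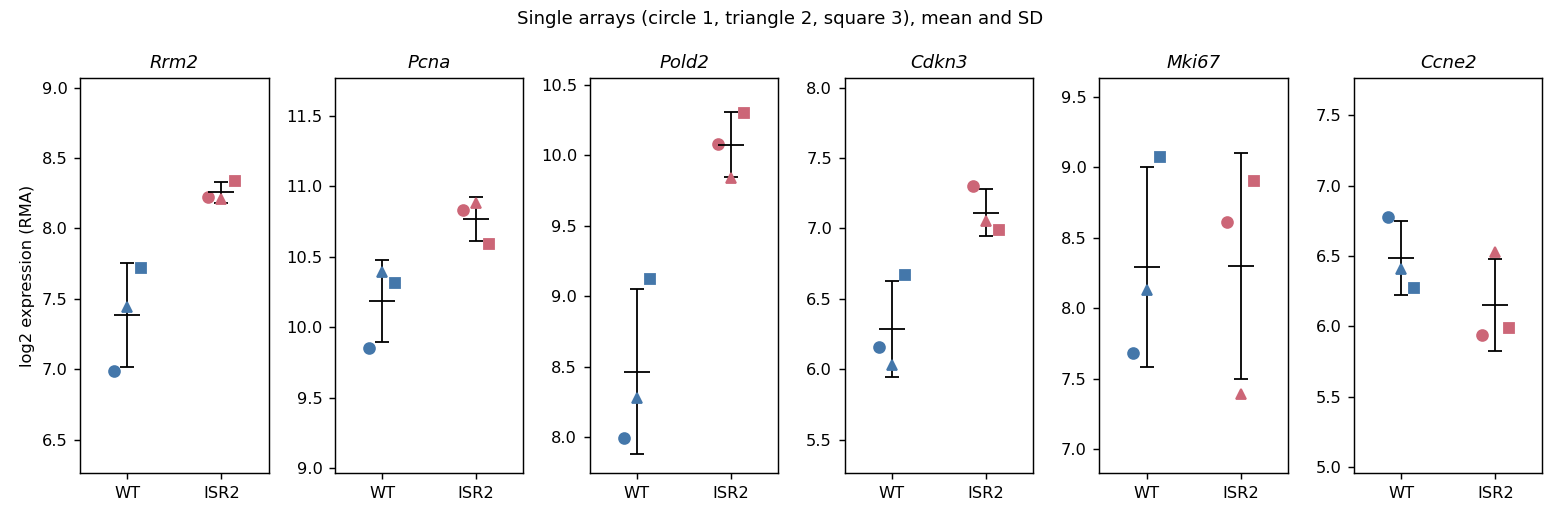
Log2 expression (RMA) of Rrm2, Pcna, Pold2, Cdkn3, Mki67 and Ccne2 in single arrays (circle, replicate 1; triangle, replicate 2; square, replicate 3) with group mean and SD, 3 arrays per group; each axis spans the same number of log2 units. The ISR2 arrays of Rrm2 (8.21 to 8.34) lie above those of wild type (6.99 to 7.72), while Mki67 spreads from 7.39 to 9.07 with overlap.

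The cyclins and cyclin-dependent kinases were at nearly the same mean in both groups. Cyclin E (Ccne1, Ccne2) with Cdk2 starts S phase, cyclin A (Ccna2) acts through S and G2, and cyclin B with Cdk1 drives mitosis. None of the 6 genes measured passed, and none had an unadjusted p under 0.05. Cdk2 was 7.19, 7.29 and 7.67 in wild type and 7.73, 7.29 and 8.12 in ISR2, a difference of 0.33 ± 0.22 (SE). Ccnb2 was 8.51, 8.95 and 9.63 in wild type and 8.91, 8.20 and 9.36 in ISR2, a difference of -0.20 ± 0.33 (SE). Both overlapped, with array 3 highest in each group. Ccna2 spread widely, from 7.87 to 9.21 in wild type and from 7.66 to 9.04 in ISR2, so that its interval of -0.87 to 0.95 is wide on both sides of 0. Cdk1 differed by -0.06 ± 0.27 (SE).

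Ccne2 had its own order of arrays. It was 6.78, 6.41 and 6.27 in wild type and 5.94, 6.53 and 5.99 in ISR2, so it was highest in wild type array 1 and in ISR2 array 2, where nearly all other members were lowest. Its paralog Ccne1 was 6.50, 6.99 and 7.16 in wild type and 7.16, 6.71 and 7.39 in ISR2, in the order of the other members. Ccne2 differed between groups by -0.33 ± 0.20 and Ccne1 by 0.20 ± 0.22 (SE). Ccne1 minus Ccne2 within each array was 0.40 ± 0.61 in wild type and 0.94 ± 0.66 in ISR2 (mean ± SD, n = 3), a group difference of 0.54 (exact permutation p = 0.4, adjusted 0.4). Here too the smallest possible p was 0.1.

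The mitotic transcription factors Mybl2 and Foxm1 did not pass. Mybl2 was 7.09, 7.12 and 7.30 in wild type and 7.31, 6.88 and 7.78 in ISR2. Foxm1 was 6.28, 6.25 and 6.96 in wild type and 6.48, 5.87 and 6.87 in ISR2. In both genes ISR2 array 2 was the lowest of the 6 arrays, and ISR2 array 3 lay at the top for Mybl2 and near the top for Foxm1. Their differences were 0.16 ± 0.21 and -0.09 ± 0.27 (SE).

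Spindle checkpoint genes hold anaphase until chromosomes are attached, and Cdc20 then activates the ubiquitin ligase that releases it. None of the 5 members passed, or had an unadjusted p under 0.05. Mad2l1, the checkpoint protein that binds Cdc20, was 7.86, 8.28 and 8.21 in wild type and 7.82, 7.38 and 8.11 in ISR2. Its difference of -0.34 ± 0.20 (SE; adjusted p = 0.544 in limma) was the lowest among the members, and the groups overlapped. Cdc20 was 7.03, 7.21 and 8.00 in wild type and 7.65, 7.20 and 8.08 in ISR2. Cdc20 thus differed by 0.23 ± 0.28 (SE) with both groups covering nearly the same range. The checkpoint kinases Bub1, Bub1b and Ttk differed by -0.10, 0.17 and 0.19, with SEs of 0.29 to 0.37.

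The mitotic kinases Aurka, Aurkb and Plk1, and Birc5 (survivin), which sits with Aurkb in the chromosomal passenger complex, had log2 changes between -0.17 and 0.21. Plk1 was 7.34, 7.88 and 8.85 in wild type and 8.44, 7.49 and 8.76 in ISR2. Aurkb was 7.98, 8.30 and 9.10 in wild type and 8.82, 7.67 and 9.01 in ISR2. Birc5 was 7.36, 7.43 and 7.71 in wild type and 7.26, 6.97 and 7.76 in ISR2. The 3 genes overlapped between groups and had array 3 highest in each; for Plk1 the gap between wild type arrays 1 and 3 was 1.51, beside a group difference of 0.21 ± 0.40 (SE). Aurka differed by -0.03 ± 0.25 (SE).

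Chromosome, kinetochore and spindle genes had the widest spread between arrays of any role (median within-group SD 0.63). Mki67, the proliferation marker Ki-67 that coats mitotic chromosomes, was 7.68, 8.13 and 9.07 in wild type and 8.61, 7.39 and 8.90 in ISR2. Its group means were 8.29 ± 0.71 and 8.30 ± 0.80 (SD, n = 3), and the 95% interval of the difference was -0.96 to 0.97. So these arrays do not show that Mki67 was the same in both groups, only that no difference was seen. Cenpa, the histone variant of centromeres, was 7.56, 7.76 and 8.14 in wild type and 7.48, 7.23 and 7.90 in ISR2 (-0.28 ± 0.21, SE). Nusap1, a spindle-binding protein, was 6.57, 6.93 and 7.82 in wild type and 7.03, 6.33 and 7.51 in ISR2 (-0.15 ± 0.35, SE). Both overlapped, with ISR2 array 2 lowest. The topoisomerase Top2a, the kinetochore proteins Cenpe and Cenpf, the motors Kif11 and Kif20a and the spindle factor Tpx2 differed by 0.15, -0.02, -0.01, 0.08, 0.07 and -0.04. Cenpe had the widest range of all members, from 5.30 in ISR2 array 2 to 7.06 in ISR2 array 3. A separate row annotated to Top2a was at 2.61 to 3.33 and was not used.

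**Figure D2:**
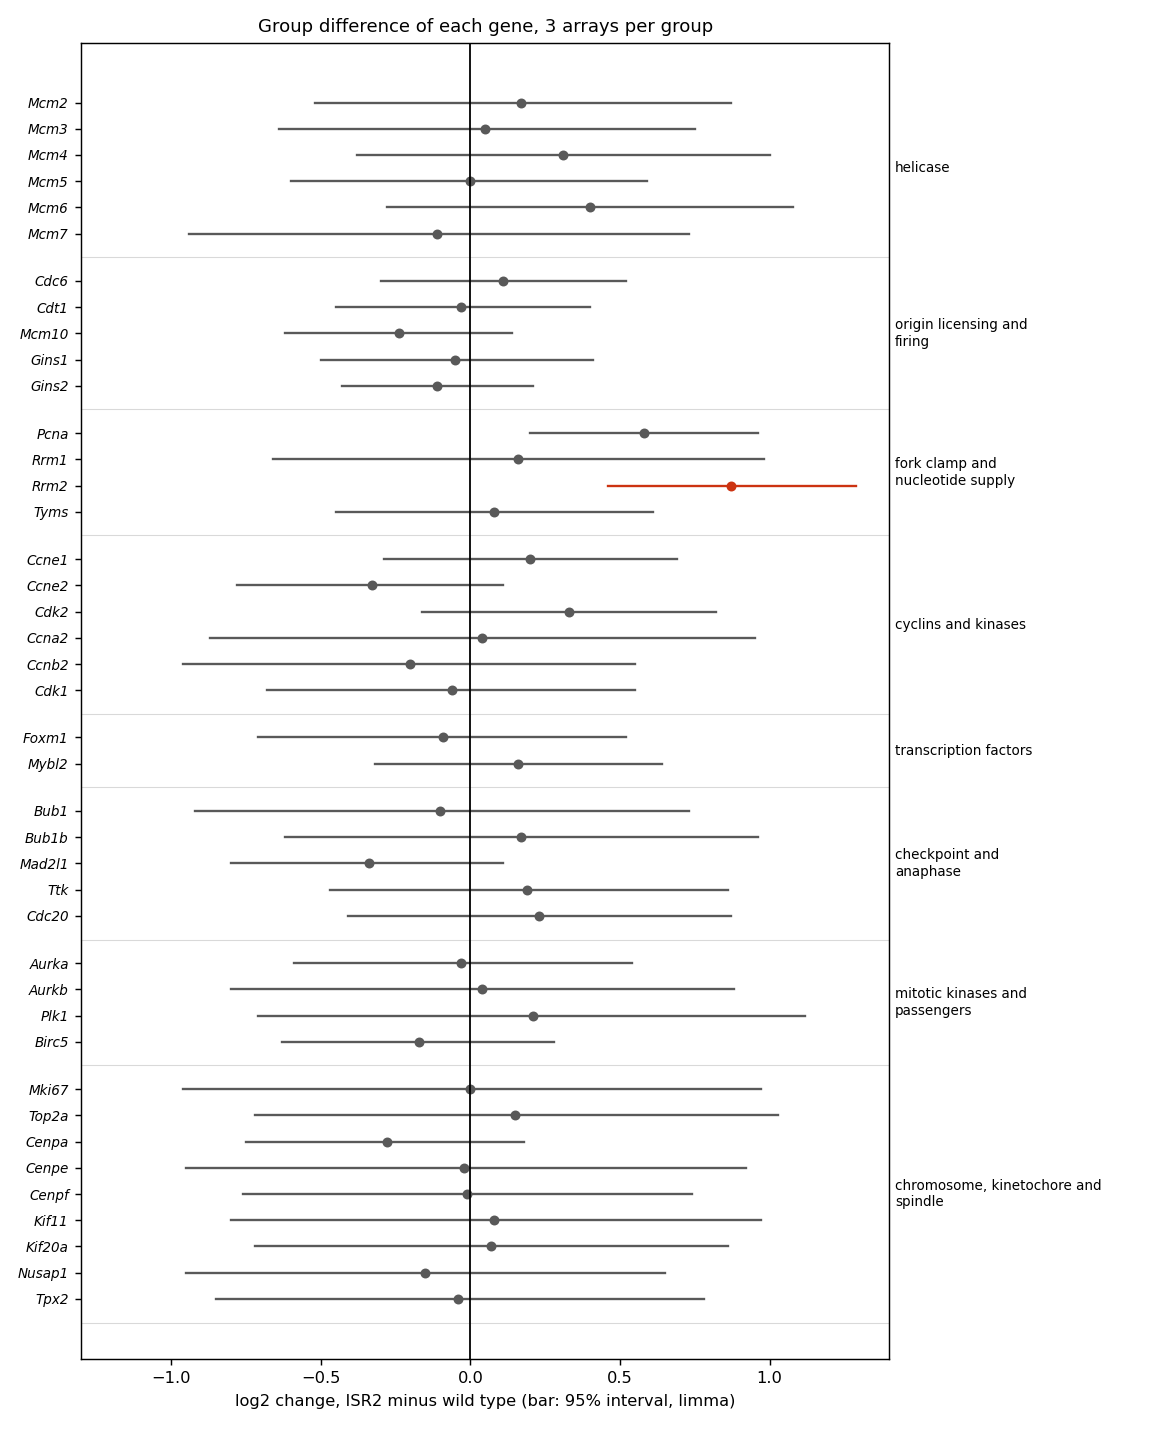
Log2 change, ISR2 minus wild type, of the 41 genes by role, with 95% intervals from limma (3 arrays per group). Rrm2 (0.87, red) is the only gene with an adjusted p under 0.05; Pcna (0.58) is the only other gene whose interval, 0.20 to 0.96, leaves out 0.

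For 36 of the 41 members the group difference was smaller than the SD within groups; the other 5 were Rrm2, Pcna, Mcm10, Ccne2 and Mad2l1. The median 95% interval reached 0.67 to either side on the log2 scale, a 1.59-fold change, beside 0.34, or 1.26-fold, for all genes. The median of the members was itself set by single arrays: with 1 array left out at a time it was -0.20 to 0.37, below 0 without wild type array 1, wild type array 2, ISR2 array 1 or ISR2 array 3 and above 0 without wild type array 3 or ISR2 array 2. No direction can therefore be given for the list as a whole.

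The order of the arrays within groups was described after the values were seen and carries no test. Wild type array 3 was the highest wild type array in 38 of 41 members and wild type array 1 the lowest in 39. ISR2 array 3 was the highest ISR2 array in 38, and ISR2 array 2 the lowest in 39. All of these held together in 36 members (87.8%), beside 8.95% of all genes. The 5 exceptions were Mcm5, Pcna, Ccne2, Foxm1 and Mad2l1. Rrm2 is counted among the 36, but ISR2 arrays 1 and 2 were nearly level in it (8.22 and 8.21), and its gap between ISR2 arrays 3 and 2 was 0.14. Over the members the median gap between wild type arrays 3 and 1 was 0.97, or 1.96-fold, and that between ISR2 arrays 3 and 2 was 0.91, or 1.87-fold; over all genes these medians were -0.03 and 0.00. The mean of the 41 members was 6.93, 7.23 and 7.77 in wild type and 7.44, 6.86 and 7.79 in ISR2.

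**Figure D3:**
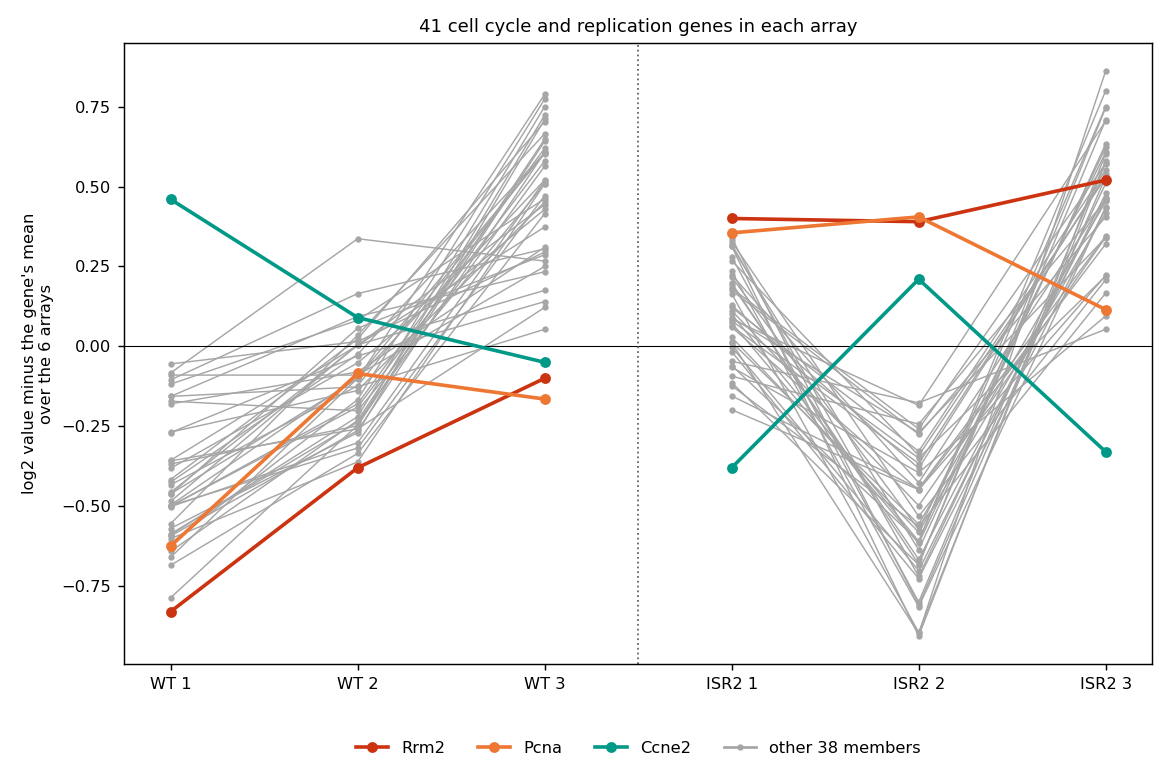
Each gene's log2 value minus its own mean over the 6 arrays; a line joins the 3 arrays of 1 group for 1 gene and implies no order between replicates. Most of the genes are low in wild type array 1 and ISR2 array 2 and high in array 3 of each group; Rrm2 is level across the ISR2 arrays (8.21 to 8.34 before centring) and Ccne2 runs the other way.

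Crypt markers shared this order of arrays in part. Of 11 intestinal stem cell markers none passed the test in limma, with 1 lower and 0 higher at an unadjusted p under 0.05, and 6 had the full order of arrays described above. Their mean was 7.34 to 7.84 in wild type and 6.99 to 7.80 in ISR2, lowest in ISR2 array 2. Lgr5, which marks crypt base stem cells, was 6.59, 6.75 and 7.31 in wild type and 6.96, 5.79 and 7.03 in ISR2. Olfm4, another stem cell marker, was 9.62, 10.26 and 10.60 in wild type and 10.41, 9.23 and 10.64 in ISR2. Both were lowest in ISR2 array 2, as the members were, and their groups overlapped. Other markers of the list differed from this order. Tnfrsf19 was 6.33, 6.47 and 6.28 in ISR2, highest in ISR2 array 2. Rnf43 was 8.35, 8.30 and 8.08 in wild type and 7.83, 7.74 and 7.96 in ISR2, all below wild type. All 11 stem cell markers were on the lower side in ISR2, beside 12473 of all 19938 genes. Of 5 Paneth cell markers, which mark secretory cells of the crypt base, 4 had this order, and their mean was 10.67, 11.14 and 11.35 in wild type and 10.73, 9.84 and 10.94 in ISR2. None of the 5 passed in limma, and 3 were lower at an unadjusted p under 0.05, beside 1675 of all 19938 genes. The part of crypt content in the spread of the members was not tested.

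In the lists of other cell types the full order was seen in 0 of 12 villus enterocyte markers, 0 of 6 goblet, 0 of 8 enteroendocrine, 0 of 12 T cell and intraepithelial lymphocyte, 0 of 9 B and plasma cell and 0 of 13 smooth muscle, stroma and endothelial markers, and in 1 of 10 myeloid and 2 of 6 tuft cell markers. The share over all genes was 8.95%, so a count of 0 or 1 in lists this short is near that background. Parts of the order were more frequent. ISR2 array 2 was the lowest ISR2 array in 9 of 10 myeloid markers, beside 41.5% of all genes. Wild type array 3 was the highest wild type array in 8 of 10 myeloid and 8 of 8 enteroendocrine markers, beside 34.4%. Wild type array 1 was the lowest wild type array in 12 of 13 smooth muscle, stroma and endothelial markers, beside 28.3%. In that list and in the 12 T cell markers, ISR2 array 3 was the highest ISR2 array in 0, beside 34.8% of all genes. The means of the myeloid, B and plasma cell, goblet and tuft cell markers were also lowest in ISR2 array 2, at 6.32, 5.76, 11.57 and 6.13. Villus enterocyte markers had means of 13.02 to 13.04 in wild type and 12.66 to 12.90 in ISR2. Of these 12, 1 fell (Alpi), beside 1.23% of all genes. In 7 of the 12 ISR2 lay wholly below wild type, beside 13.9% of all genes. At an unadjusted p under 0.05, 5 were lower, beside 1675 of all 19938 genes. The T cell markers had means of 7.18 to 7.58 in wild type and 6.40 to 6.83 in ISR2. Of these 12, 5 fell, beside 1.23% of all genes. Smooth muscle, stroma and endothelial markers had means of 7.14, 8.84 and 7.57 in wild type and 7.90, 8.30 and 7.84 in ISR2. Muscle genes in this list differed widely between arrays. Acta2 was 8.16, 12.14 and 9.38 in wild type and 9.36, 11.38 and 9.33 in ISR2. Des was 7.45, 11.58 and 8.04 in wild type and 7.93, 10.52 and 8.26 in ISR2. Both were highest in array 2 of each group, but ISR2 array 2 was the lowest ISR2 array in 7 of the 13 markers, beside 41.5% of all genes. The part of muscle and of these cell types in the members' values was not tested.

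**Figure D4:**
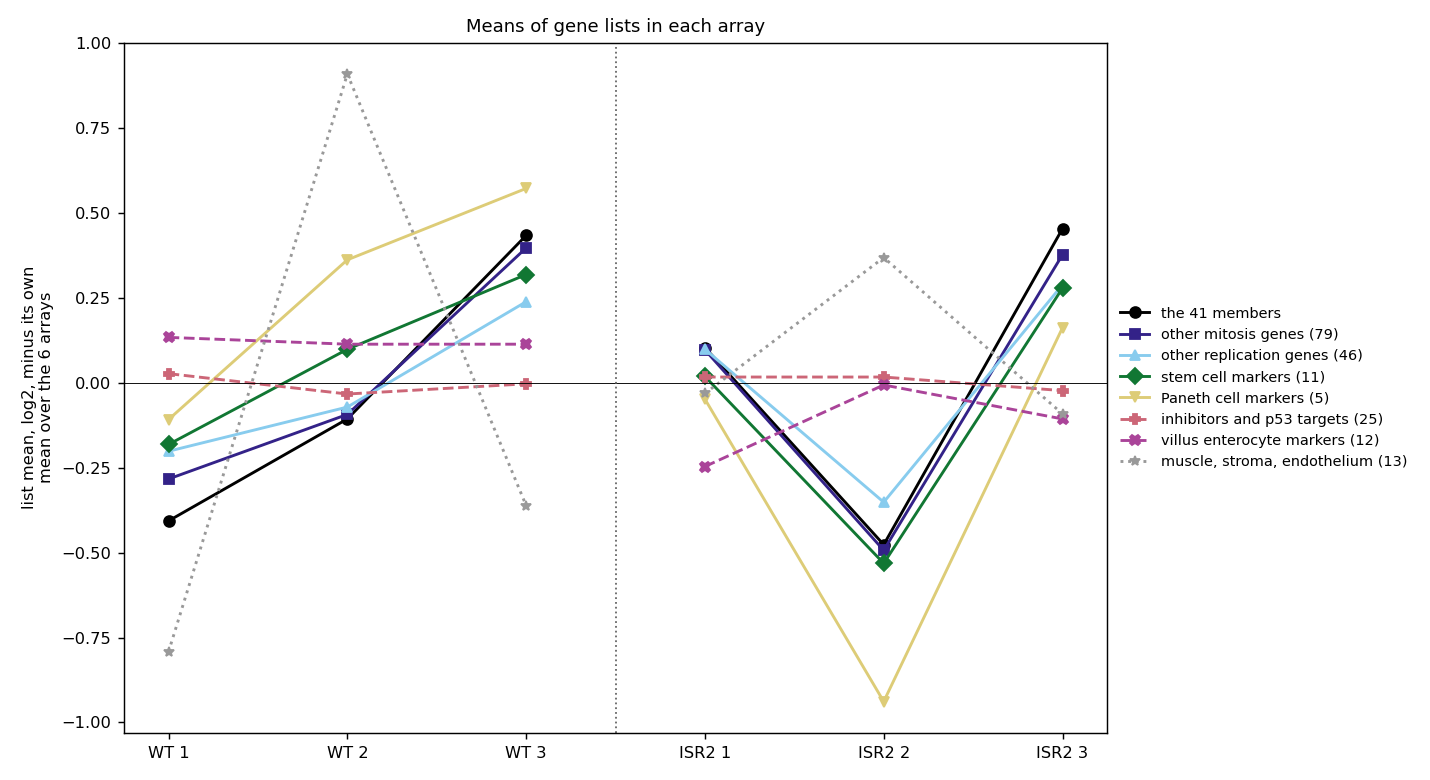
Mean log2 value of each gene list in each array, minus the list's own mean over the 6 arrays; numbers in brackets are genes. Lines join arrays of 1 group only. The members (6.86 to 7.79 before centring), other mitosis and replication genes and the stem cell and Paneth cell markers are lowest in ISR2 array 2. So are lists not drawn: nucleotide synthesis, G1 and S regulators, checkpoint and repair, and myeloid, B and plasma cell, goblet and tuft cell markers. The inhibitors with p53 targets stay between 7.73 and 7.79 before centring.

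Other genes of the cell cycle were counted from lists of 235 names, of which 225 were measured. Of these 2 rose and none fell, beside 1.79% and 1.23% of all genes, and 9 were higher and 5 lower at an unadjusted p under 0.05, a smaller share than the 13.1% of all genes; their median log2 change was -0.03. The order of arrays described for the members was present in 117 of them (52%), beside 8.95% of all genes.

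The rise with the smallest p was that of Pold2, the accessory subunit of DNA polymerase delta, which works on the Pcna clamp. It was 7.99, 8.28 and 9.12 in wild type and 10.08, 9.84 and 10.30 in ISR2, without overlap. The change of 1.61 ± 0.27 (SE; adjusted p = 0.0114 in limma) was 3.05-fold. The call was lost without wild type array 2 or ISR2 array 1 (adjusted p = 0.0515 and 0.0643) and with all rows tested (0.0585). Of the 46 genes of the replication apparatus no other passed. In this list 20 were higher and 26 lower, beside 7465 and 12473 of all 19938 genes.

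Cdkn3, a phosphatase that acts on Cdk1 and Cdk2, was the other gene that rose. It was 6.16, 6.03 and 6.67 in wild type and 7.30, 7.05 and 6.99 in ISR2, without overlap (0.82 ± 0.18, SE; 1.77-fold; adjusted p = 0.0476 in limma). Its call was kept only without wild type array 3, and was lost without any other single array (adjusted p = 0.0763 to 0.213) or with all rows tested (0.128). It is the only call among 25 inhibitors and p53 targets. At an unadjusted p under 0.05, 3 of the 25 were higher and 2 lower, beside 943 and 1675 of all 19938 genes. ISR2 lay wholly above wild type in 4 and wholly below in 1, beside 5.87% and 13.9% of all genes. That list did not follow the members between arrays: its mean was 7.73 to 7.79 in wild type and 7.74 to 7.78 in ISR2. Of its 25 genes, 1 had the order of arrays of the members, beside 8.95% of all genes.

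In the remaining lists no gene passed in limma. Among 79 further mitosis genes 54 had the members' order of arrays, and 1 was higher and 1 lower at an unadjusted p under 0.05. These were Zwint, a kinetochore protein (0.31 ± 0.12, SE; adjusted p = 0.295 in limma), and Cenpl, a centromere protein (-0.47 ± 0.14, SE; adjusted p = 0.144). Both had groups without overlap, Zwint above and Cenpl below. They were the only such genes of the 79, beside 5.87% of all genes wholly above and 13.9% wholly below. Among 20 genes of nucleotide synthesis, Dctpp1, which breaks down deoxynucleotides such as dCTP, differed by -0.32 ± 0.12 and Adsl, an enzyme of purine synthesis, by 0.56 ± 0.21 (SE; adjusted p = 0.265 and 0.281 in limma). No other gene of that list had an unadjusted p under 0.05. Among 32 regulators of G1 and S phase, the proto-oncogene Mycn differed by 0.52 ± 0.20 and Mxd3, a partner of Max, by -0.29 ± 0.14 (SE; adjusted p = 0.306 and 0.414 in limma). Among 23 checkpoint and repair genes, Pkmyt1, the kinase that holds Cdk1 inactive, differed by 0.40 ± 0.13 and the checkpoint kinase Chek2 by -0.31 ± 0.22 (SE; adjusted p = 0.194 and 0.643 in limma). Pkmyt1 was 7.78 to 7.98 in wild type and 8.17 to 8.39 in ISR2, without overlap. With array weights Pkmyt1 and Trp53inp1, a p53 target, were called higher and Cenpl lower. In these lists 1 of 32 and 1 of 23 genes were higher at an unadjusted p under 0.05, and 0 lower.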

How the data were processed

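Biotin-labelled targets were made from jejunal RNA with an Affymetrix kit, per the labels. The deposited values are log2 expression made by the authors with RMA, per the submitters' processing notes; no source used here gives its version. Genes are rows with 1 symbol in the array annotation (21789 of 35556 rows); where a symbol had several rows, the brightest on average was kept, which gave 19938 genes. Sample titles gave the groups. The fit, ISR2 minus wild type, used limma 3.58.1 in R 4.3.3 (lmFit, eBayes) without covariates; adjusted p is Benjamini-Hochberg over all genes, two-sided, with a threshold of 0.05. The step was tested on simulated data. Called members, and in each role the 2 with the smallest p and the one with the highest mean, have every array's value. The other cell cycle lists give called genes or the 2 with the smallest p. Cell type and regional markers named singly did not follow that rule. The members and lists were chosen with earlier results of these data known. Promoters are from the RefSeq table of GRCm38.p6 and were searched in Python 3.11.15; figures used matplotlib 3.10.9. Alternatives were leaving out each array, a replicate block, other thresholds, testing all rows, averaging a gene's rows, dropping dim genes, array weights, quantile normalization, median centring, and eBayes with a trend or robust.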

Additional observations from a re-analysis of the deposited data

How the results depend on the processing

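The fits with an intensity trend, robust eBayes, quantile normalization, median centring, dim genes dropped, a gene's rows averaged and an adjusted p under 0.10 each called 1 member and 2 other cell cycle genes, as in the text. With array weights limma called 2 members (Rrm2 and Pcna) and 5 other genes. With all rows tested limma called 0 members and 0 other genes (2 and 12 at an unadjusted p under 0.05). The log2 changes were the same, but more rows were adjusted for and eBayes drew on the variance of all rows. At an unadjusted p under 0.05, 2 members and 14 other genes were called, beside 13.1% of all genes. With each array left out the limma counts were 0 to 1 members and 0 to 2 other genes (2 to 5 and 8 to 20 at an unadjusted p under 0.05), and the median change of the members was -0.20 to 0.37. Over the alternatives that give a change, 27 of the 41 members changed sign at least once; Rrm2 did not (0.67 to 1.04). Replicate numbers were not taken as pairs in the main fit. The correlations of same-numbered deviations were -0.02, 0.32 and 0.54, and those of differently numbered arrays are not given here. Whether same-numbered arrays belong together was not tested. With the replicate number as a block 1 member and 2 other genes were called, and the median was 0.04. The number of arrays limits what can be seen, and no background signal or detection call was used.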
